A study of Mus musculus with 12 samples.

Results

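The genes described here encode the cornified envelope, the protein shell that replaces the cell membrane when a keratinocyte dies at the skin surface, and the enzymes that build it. They were chosen by name: every gene called Lce or Sprr with a number, plus Lor, Flg, Flg2, Ivl, Hrnr, Rptn, Tchhl1, Crct1, Tgm1, Tgm3 and Casp14. The rule found 46 rows of the 25965 listed, for 45 gene names, because Flg is listed on 2 rows. By role they are 18 late cornified envelope (LCE) genes, 16 small proline-rich (SPRR) genes, 6 rows of S100 fused-type proteins (Flg, Flg2, Hrnr, Rptn and Tchhl1), 3 other envelope proteins (Lor, Ivl and Crct1) and 3 enzymes (Tgm1, Tgm3 and Casp14). A total of 43 rows lie on chromosome 3, in the gene cluster called the epidermal differentiation complex. The LCE1 genes, Lor and Flg were highest in a pair of single libraries of different compartment and genotype, Tgm3 was high in all 4 IFE libraries, and Sprr1a, Sprr4 and Ivl were highest in the hair follicle stem cell libraries.

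Messenger RNA was sequenced in 12 libraries of mouse skin cells from 3 compartments, with 2 control libraries and 2 libraries labelled Egfr knockout in each. Controls of all compartments carry EGFR_fl_fl, an Egfr allele flanked by loxP sites and not deleted. The IFE and ORS knockouts are EGFR_delta_ep and the HFSC knockouts EGFR_delta_LGR5, so that every library derives from the floxed allele. The driver of each deletion is known here only through those names. ORS is the outer root sheath of the hair follicle and HFSC its stem cells. In the labels IFE stands beside the words inner root sheath, and only the abbreviation is used here. All IFE and ORS cells were sorted, and the titles of IFE and ORS libraries end in FC7 and FC8 where they have such an ending. Libraries go by the codes of their titles, and paired values are given in this order: E341 and E360 for IFE controls, E358 and E359 for IFE knockouts, E341 and E344 for ORS controls, E358 and E359 for ORS knockouts, L94 and L136 for HFSC controls, L95 and L97 for HFSC libraries labelled knockout. No label says that libraries are separate animals, and codes E341, E358 and E359 occur in both IFE and ORS, so the p-values rest on a spread between libraries that may be technical.

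In stratified epidermis, involucrin and the SPRR proteins are laid down early under the membrane and crosslinked by transglutaminases. Loricrin, filaggrin-type proteins and the LCE proteins are added later, in the granular layer, where caspase-14 also takes part in breaking filaggrin down. AP-1 is a family of transcription factors (Jun and Fos proteins) that is known to act on the involucrin and SPRR promoters, and EGFR signalling is one of the pathways upstream of it.

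Levels are given as CPM, the TMM-scaled number of reads for every 1000000 reads in genes. Egfr itself went from 116 and 156 CPM in IFE controls to 0 and 0.320 CPM in IFE knockouts. It was at 277 and 247 CPM (controls) against 3.72 and 55.2 CPM (knockouts) in ORS and at 431 and 389 CPM (controls) against 335 and 330.1 CPM (libraries labelled knockout) in HFSC. The HFSC knockout libraries thus kept most of the transcript, and they are called the libraries labelled knockout. IFE libraries held 11.41 to 13.18 M reads in genes, ORS libraries 24.66 to 27.67 M and HFSC libraries 11.53 to 16.83 M, so a gene with no read could still have been present at up to 0.107 to 0.268 CPM (3 reads, counting error only). Sex went with genotype: by Xist and 4 Y-linked genes, IFE controls were male and IFE knockouts female, HFSC controls female and HFSC libraries labelled knockout male, and ORS control E341 male against 3 female ORS libraries. Its part in any knockout comparison cannot be told apart from genotype in IFE and HFSC. Of markers, Krt1 and Krt10 (suprabasal keratins) were at 698 to 1697 and 649 to 1404 CPM in IFE, against at most 38.02 and 65.6 CPM in ORS and 17.8 and 77.7 CPM in HFSC. Of 5 inner root sheath markers, Krt25 and Krt28 had no read in any IFE library, Krt27 was at most 3.66 CPM there, Krt71 had reads in 1 IFE library (6.82 CPM) and Tchh was at 1.34 to 16.1 CPM. Their summed level was 18.4 and 4.999 CPM (controls) against 21.0 and 15.7 CPM (knockouts) in IFE and 7.40 and 19.4 CPM (controls) against 29.1 and 23.9 CPM (knockouts) in ORS, so both compartments overlapped in this list. Cd34, a bulge stem cell marker, was at 1329.6 to 2150.4 CPM in HFSC and at most 5.88 CPM elsewhere, and Lgr5 was at 340.6 to 495 CPM in ORS and 132 to 357 CPM in HFSC.

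Exact motif letters just upstream of the members differed in frequency between the SPRR and LCE families. The upstream sequences of 7 members named in the comparisons below are shown. Each is the 150 bases before the RefSeq start (GRCm38.p6), 5′ to 3′ on the gene's strand. Capitals mark TGANTCA (the AP-1 letters), TATAAA, and 2 runs of 12 bases shared by LCE1 genes. All those shown from outside the LCE family hold TGANTCA, whereas Tgm3, Sprr4 and Tgm1, called below but not shown, hold none.
Sprr1a (chr3:92485882-92486031, minus strand): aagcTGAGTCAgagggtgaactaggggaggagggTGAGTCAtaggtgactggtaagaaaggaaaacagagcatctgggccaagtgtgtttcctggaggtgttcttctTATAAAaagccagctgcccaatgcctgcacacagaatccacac
Ivl (chr3:92573736-92573885, minus strand): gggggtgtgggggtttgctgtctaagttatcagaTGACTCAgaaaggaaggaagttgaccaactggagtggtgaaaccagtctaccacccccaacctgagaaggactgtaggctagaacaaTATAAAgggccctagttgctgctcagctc
Lor (chr3:92083143-92083292, minus strand): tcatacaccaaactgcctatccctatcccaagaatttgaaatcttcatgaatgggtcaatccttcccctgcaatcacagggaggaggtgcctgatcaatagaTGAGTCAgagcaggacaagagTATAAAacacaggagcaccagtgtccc
Flg (chr3:93273396-93273545, plus strand): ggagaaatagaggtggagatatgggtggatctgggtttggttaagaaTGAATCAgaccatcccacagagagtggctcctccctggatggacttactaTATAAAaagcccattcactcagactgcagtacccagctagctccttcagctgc
Lce1c (chr3:92679097-92679246, plus strand): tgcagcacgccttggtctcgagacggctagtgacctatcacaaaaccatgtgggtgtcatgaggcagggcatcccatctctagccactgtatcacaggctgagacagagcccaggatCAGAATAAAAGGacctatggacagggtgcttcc
Lce1e (chr3:92709075-92709224, minus strand): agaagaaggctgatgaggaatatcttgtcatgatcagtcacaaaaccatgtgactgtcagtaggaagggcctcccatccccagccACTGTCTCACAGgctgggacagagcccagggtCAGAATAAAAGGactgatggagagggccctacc
Lce1g (chr3:92752339-92752488, minus strand): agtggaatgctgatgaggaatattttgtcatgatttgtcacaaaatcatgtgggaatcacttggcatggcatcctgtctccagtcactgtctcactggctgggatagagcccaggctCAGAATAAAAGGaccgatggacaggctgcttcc

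RefSeq promoters, 42 in all, were found for 41 of the 45 names. Within 250 bases before the start, TGANTCA (its reverse is the same letters) stood in 9 of 14 SPRR promoters (64.3%), in 0 of 17 LCE promoters and in 6.75% of all 32851 promoters. Sprr1a held it at 146 and 116 bases before the start, Ivl at 116, Flg at 103 and Lor at 48. Sprr4, Sprr2a3, Tgm1 and Tgm3, which were called in comparisons below, held no TGANTCA in the bases searched. For Sprr2a3 those bases end at chr3:92285303, whereas its listed row starts at chr3:92288566, so the bases directly before that row were not searched. Among the SPRR promoters with it, those of Sprr2b, Sprr2d, Sprr2e, Sprr2f, Sprr2i and Sprr2k belong to genes without a read in any library. Within the bases searched, the letters thus do not follow the calls. TATAAA, on either strand, stood in 10 of 14 SPRR promoters, 3 of 17 LCE promoters and 12.4% of all. In Lce6a it stood on the opposite strand, 218 bases before the start. Of 3 further motifs searched on both strands, TTNNGNAA (C/EBP) stood in 12 of 14 SPRR, 6 of 17 LCE and 36.8% of all promoters, GGGNGNGGC (KLF) in 3, 0 and 23.3%, and AACCNGTT (GRHL) in 0, 0 and 1.79%. Besides exact matches to these motifs, 7 of the 12 LCE1 promoters held the run cagaataaaagg, 33 bases before the start, and 7 held actgtctcacag, 64 or 65 bases before it. The run cagaataaaagg holds aataaa, which differs from TATAAA in its first letter only. The count of exact TATAAA therefore leaves out closely related letters in LCE promoters. On either strand cagaataaaagg was found in 10 promoters (0.0304% of all) and actgtctcacag in 8 (0.0244%), and 7 of each are these LCE1 promoters. Neither run was found in a member outside LCE1. Both were picked because they stood in the most LCE1 promoters, so these shares are a description and no test. A match is a description of letters and not of binding, and no match says nothing about a factor.

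Of the 46 rows, 12 had no read in any library: Sprr2b, Sprr2d, Sprr2e, Sprr2f, Sprr2g, Sprr2i, Sprr2j-ps, Sprr2k, Sprr3, Lce3b, Lce3f and Tchhl1. The other 34 had at least 1 read somewhere, and 27 reached 10 CPM in at least 1 library. The map of members by library shows that these 27 were split among 3 libraries for their highest value. IFE control E341 was highest for 13, ORS knockout E358 for 11 and HFSC library L95, labelled knockout, for 3 (Sprr1a, Sprr4 and Ivl).

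**Figure D1:**
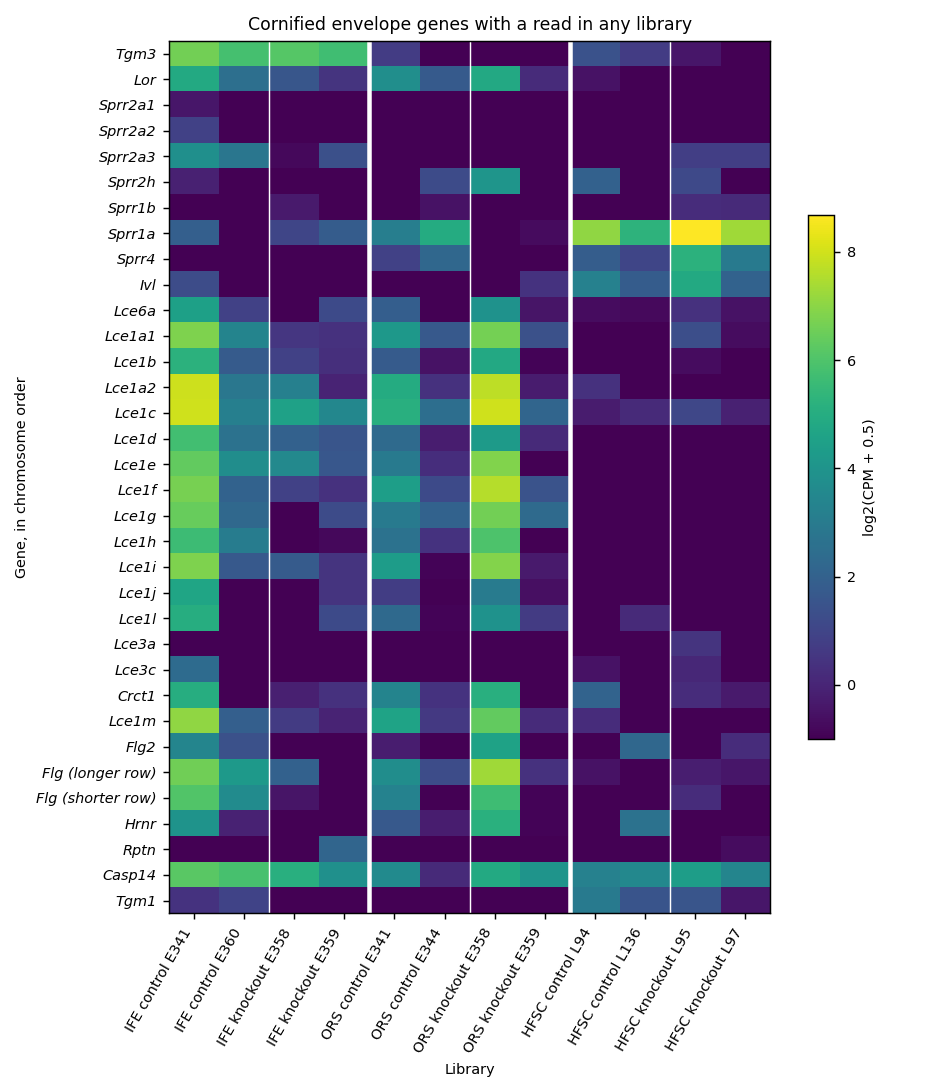
Level of the 34 members with a read (rows, in chromosome order) in the 12 libraries (columns), as log2(CPM + 0.5). The LCE, filaggrin-type and Lor rows are bright in IFE control E341 and ORS knockout E358, whereas Sprr1a, Sprr4 and Ivl are brightest in HFSC.

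Summed over all members, the level was 1789 and 229 CPM in IFE controls and 166 and 103 CPM in IFE knockouts. In ORS the sum reached 254 and 60.5 CPM for controls against 1688 and 34.5 CPM for knockouts, and in HFSC 174 and 68.2 CPM for controls against 509 and 181 CPM for libraries labelled knockout. LCE genes held 75.4% of this sum in IFE control E341 and 77.9% in ORS knockout E358, against 25.4% to 32.2% in the other IFE libraries. In HFSC the SPRR genes held 57.6% to 91.1% of it and LCE genes at most 1.95%. In these bulk libraries fewer cells of a type and less RNA per cell cannot be told apart.

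Levels of different genes were compared per kilobase of exon. In IFE the highest members were Lce1c, at a mean of 101 CPM per kb (11.8 to 347 over 4 libraries), and Lce1a2, at 91.5 (0.670 to 343.9). The same genes led in ORS, with Lce1c at 103 CPM per kb (5.52 to 352) and Lce1a2 at 83.3 (0.475 to 289.5). These ranges overlap almost wholly, so the order among LCE1 genes is not resolved. In HFSC the highest member was Sprr1a, at 228 CPM per kb (46.9 to 507), then Sprr4 at 52.6 (6.51 to 159), whose range overlaps it. Below them Ivl, at 5.89 (1.59 to 15.3), and Casp14, at 5.28 (3.78 to 8.51), are not resolved in order.

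The LCE genes encode small cysteine-rich proteins of the late envelope, and the LCE1 group supplied nearly all of their reads. Lce1c was at 252 and 8.57 CPM in IFE controls, 22.4 and 10.7 CPM in IFE knockouts, 34.1 and 5.07 CPM in ORS controls, 255 and 3.998 CPM in ORS knockouts and 0.329 and 0.620 CPM (controls) against 1.59 and 0.437 CPM (libraries labelled knockout) in HFSC. Both IFE groups overlapped, as did both ORS groups, and every HFSC library lay below every IFE and ORS library. Lce1a2 followed the same libraries, at 246 and 6.61 CPM (controls) against 8.80 and 0.479 CPM (knockouts) in IFE, 30.1 and 0.807 CPM (controls) against 207 and 0.339 CPM (knockouts) in ORS, and 0.790 and 0 CPM (controls) against no read (libraries labelled knockout) in HFSC. Lce1a1 was at 112 and 9.73 CPM in IFE controls and 0.951 and 0.799 CPM in IFE knockouts, 17.2 and 2.77 CPM (controls) against 100.5 and 2.15 CPM (knockouts) in ORS, and no read (controls) against 2.02 and 0.125 CPM (libraries labelled knockout) in HFSC. For Lce1a1 both IFE knockouts lay below both controls, whereas the ORS groups overlapped. Lce1b, arranged like Lce1a1 in IFE, was at 37.1 and 2.95 CPM (controls) against 1.35 and 0.719 CPM (knockouts) in IFE, 2.92 and 0.192 CPM (controls) against 28.1 and 0.0377 CPM (knockouts) in ORS, and at most 0.123 CPM in HFSC. Lce1m, which lies apart from the other LCE1 genes beyond the LCE3 group, was at 133 and 3.30 CPM (controls) against 1.11 and 0.479 CPM (knockouts) in IFE, 23.8 and 1.04 CPM (controls) against 81.9 and 0.641 CPM (knockouts) in ORS, and at most 0.658 CPM in HFSC.

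No read was found in any HFSC library for 7 LCE1 genes: Lce1d, Lce1e, Lce1f, Lce1g, Lce1h, Lce1i and Lce1j. Lce1d was at 53.0 and 5.71 CPM in IFE controls, 3.57 and 2.40 CPM in IFE knockouts, 4.59 and 0.346 CPM in ORS controls and 19.1 and 0.603 CPM in ORS knockouts. Lce1e was at 80.9 and 12.9 CPM (controls) against 11.2 and 2.56 CPM (knockouts) in IFE and 7.505 and 0.692 CPM (controls) against 113 and 0 CPM (knockouts) in ORS. In both genes the IFE knockouts lay below the controls, by little against control E360, and the ORS groups overlapped. Lce1f was at 104 and 3.66 CPM (controls) against 1.35 and 0.799 CPM (knockouts) in IFE, and 21.1 and 1.77 CPM (controls) against 195 and 2.30 CPM (knockouts) in ORS. Lce1g was at 86.5 and 4.29 CPM (controls) against 0 and 1.84 CPM (knockouts) in IFE, and 7.33 and 3.57 CPM (controls) against 98.9 and 4.60 CPM (knockouts) in ORS. Lce1h was at 49.5 and 7.77 CPM (controls) against 0 and 0.0799 CPM (knockouts) in IFE, and 5.83 and 0.846 CPM (controls) against 62.2 and 0 CPM (knockouts) in ORS. These 3 genes were lower in both IFE knockouts than in both controls, and in ORS knockout E358 lay far above the controls and E359 within or below their range. Lce1i was at 111 and 2.77 CPM (controls) against 2.93 and 0.878 CPM (knockouts) in IFE, and 19.7 and 0.0384 CPM (controls) against 116 and 0.302 CPM (knockouts) in ORS. Lce1j was at 25.1 and 0 CPM (controls) against 0 and 0.878 CPM (knockouts) in IFE, and 1.21 and 0 CPM (controls) against 7.66 and 0.151 CPM (knockouts) in ORS. Lce1l was at 32.3 and 0 CPM (controls) against 0 and 1.76 CPM (knockouts) in IFE, 4.45 and 0.0384 CPM (controls) against 14.8 and 1.09 CPM (knockouts) in ORS, and 0 and 0.620 CPM in HFSC controls with no read in HFSC libraries labelled knockout. In the last 3 of these the groups overlapped in both compartments. Lce6a, outside the LCE1 group, was at 21.9 and 1.34 CPM (controls) against 0 and 1.76 CPM (knockouts) in IFE, 3.17 and 0 CPM (controls) against 14.9 and 0.226 CPM (knockouts) in ORS, and at most 0.797 CPM in HFSC. Of the LCE3 genes, Lce3a and Lce3c reached at most 0.859 and 4.70 CPM in any library. No 150-base stretch of an LCE1 member occurred in another gene's transcript, whereas 15.1% of those of Lce3c did.

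Filaggrin (Flg), which bundles keratin filaments and is then broken down to natural moisturising factor, is split over 2 rows. Between them lie 5 rows under other names, which fall in the annotated Flg gene and held no read. The levels given here thus come from only part of that gene. On the longer row (chr3:93273541-93282353) it was at 96.2 and 18.03 CPM in IFE controls and 3.57 and 0 CPM in IFE knockouts, 12.9 and 1.88 CPM in ORS controls and 157 and 0.792 CPM in ORS knockouts, and 0.198 and 0 CPM (controls) against 0.368 and 0.250 CPM (libraries labelled knockout) in HFSC. On the shorter row (chr3:93292199-93293686) it was at 65.2 and 12.2 CPM (controls) against 0.238 and 0 CPM (knockouts) in IFE, 9.36 and 0 CPM (controls) against 50.1 and 0.0377 CPM (knockouts) in ORS, and at most 0.675 CPM in HFSC. Both rows had the IFE knockouts below the controls, and the ORS groups overlapped. Flg2, a filaggrin relative, was at 10.2 and 2.14 CPM in IFE controls with no read in IFE knockouts, 0.356 and 0 CPM (controls) against 23.4 and 0 CPM (knockouts) in ORS, and 0 and 4.25 CPM (controls) against 0 and 0.686 CPM (libraries labelled knockout) in HFSC. Hornerin (Hrnr) was at 15.4 and 0.446 CPM in IFE controls with no read in IFE knockouts, 2.77 and 0.346 CPM (controls) against 35.1 and 0.0377 CPM (knockouts) in ORS, and 0 and 5.75 CPM in HFSC controls with no read in HFSC libraries labelled knockout. Each of these had its highest or second highest value in ORS knockout E358 and IFE control E341. Repetin (Rptn) had reads in 2 libraries only and reached 3.99 CPM.

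Loricrin (Lor), the main protein of the mature envelope, was at 28.5 and 5.27 CPM in IFE controls, 2.54 and 0.878 CPM in IFE knockouts, 13.1 and 2.84 CPM in ORS controls, 28.4 and 0.641 CPM in ORS knockouts and 0.198 and 0 CPM in HFSC controls, with no read in HFSC libraries labelled knockout. Crct1, a cysteine-rich gene lying among the LCE genes, was at 32.2 and 0 CPM (controls) against 0.396 and 0.799 CPM (knockouts) in IFE, 9.78 and 0.846 CPM (controls) against 34.2 and 0 CPM (knockouts) in ORS, and 3.75 and 0 CPM (controls) against 0.675 and 0.312 CPM (libraries labelled knockout) in HFSC. Lor separated IFE controls from knockouts, and Crct1 did not, because IFE control E360 had no Crct1 read. Involucrin (Ivl), the early scaffold, ran the other way: it was at 1.85 and 0 CPM in IFE controls with no read in IFE knockouts, no read (controls) against 0 and 0.830 CPM (knockouts) in ORS, and 9.08 and 3.01 CPM (controls) against 28.9 and 3.62 CPM (libraries labelled knockout) in HFSC. Every HFSC library had more Ivl than any IFE or ORS library.

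Among the SPRR genes, which encode crosslinked bridge proteins of the envelope, Sprr1a was at 3.36 and 0 CPM in IFE controls and 1.51 and 3.04 CPM in IFE knockouts, 8.25 and 30.6 CPM in ORS controls and 0 and 0.113 CPM in ORS knockouts, and 134 and 37.8 CPM (controls) against 409 and 155 CPM (libraries labelled knockout) in HFSC. The ORS knockouts lay below both ORS controls, and the HFSC libraries labelled knockout lay above both HFSC controls. Sprr4, arranged in the same way, had no read in IFE or in ORS knockouts, and was at 1.35 and 4.23 CPM in ORS controls and 3.09 and 1.505 CPM (controls) against 36.6 and 7.42 CPM (libraries labelled knockout) in HFSC. Sprr2a3 was at 13.8 and 6.43 CPM in IFE controls and 0.0793 and 2.08 CPM in IFE knockouts, had no read in ORS or HFSC controls, and was at 1.23 and 1.25 CPM in HFSC libraries labelled knockout. Sprr2h was at 0 and 1.81 CPM (controls) against 16.1 and 0 CPM (knockouts) in ORS, 3.56 and 0 CPM (controls) against 1.72 and 0 CPM (libraries labelled knockout) in HFSC, and at most 0.420 CPM in IFE. Its reads sat in single libraries of each group. Sprr1b, Sprr2a1 and Sprr2a2 did not exceed 0.675, 0.252 and 1.34 CPM. Near-identical copies may share reads here, since 89.6% of the 150-base stretches of Sprr2a1, 89% of those of Sprr2a2 and 19% of those of the annotated Sprr2a3, of which the listed row covers 682 exon bases, occurred in another gene's transcript.

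Of the enzymes, transglutaminase 3 (Tgm3), which crosslinks loricrin and trichohyalin and is strong in hair, was at 98.4 and 55.4 CPM in IFE controls and 69.9 and 51.8 CPM in IFE knockouts, 1.14 and 0 CPM in ORS controls with no read in ORS knockouts, and 2.24 and 1.15 CPM (controls) against 0.245 and 0 CPM (libraries labelled knockout) in HFSC. All 4 IFE libraries lay above all others, and the IFE knockouts overlapped the controls. Caspase-14 (Casp14) was at 72.8 and 58.4 CPM in IFE controls and 34.3 and 13.9 CPM in IFE knockouts, 12.02 and 0.615 CPM in ORS controls and 29.2 and 15.6 CPM in ORS knockouts, and 9.02 and 11.1 CPM (controls) against 20.3 and 10.1 CPM (libraries labelled knockout) in HFSC. It was lower in both IFE knockouts than in both controls and higher in both ORS knockouts than in both controls. Transglutaminase 1 (Tgm1), the membrane-bound crosslinker, was at 0.840 and 1.43 CPM in IFE controls with no read in IFE knockouts or ORS, and 7.17 and 2.39 CPM (controls) against 2.45 and 0.250 CPM (libraries labelled knockout) in HFSC. The plots of single members show these 3 kinds of pattern side by side.

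**Figure D2:**
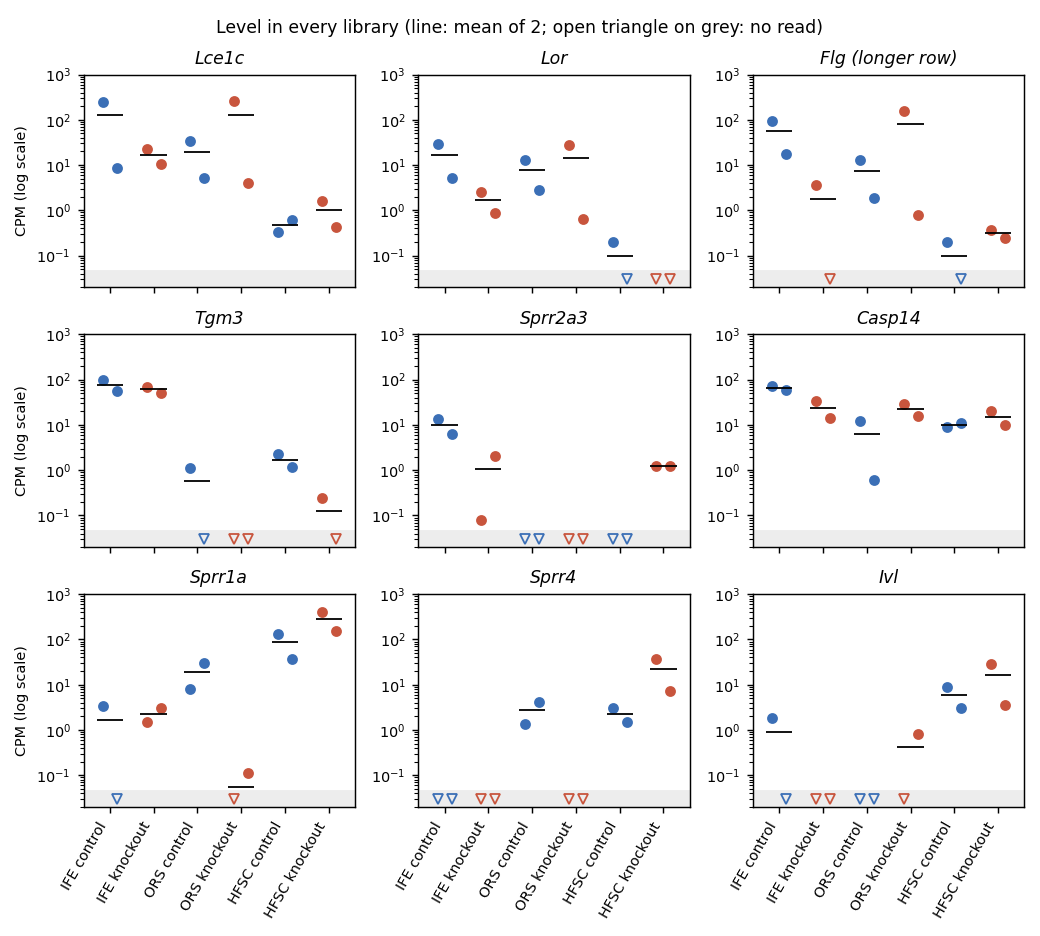
CPM (log axis) of 9 members in the 6 groups, with 1 point per library (blue control, red knockout), a line at the mean of both libraries and open triangles for libraries with no read. Left and right points of a group follow the order of codes given above. Lce1c, Lor and Flg are high in IFE control E341 and ORS knockout E358, Tgm3 in all IFE libraries, and Sprr1a, Sprr4 and Ivl in HFSC.

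The libraries of a group differed far more in these genes than in most genes. Among genes at 10 CPM or more in at least 1 library of the group, the median size of the gap between both libraries was 3.46 on the log2 scale over 23 members in IFE controls, against 0.449 over all 9989 genes at that level. In ORS knockouts it was 5.83 over 21 members, against 0.481 over 10108 genes, and in ORS controls 2.94 over 10 members, against 0.309 over 9975 genes. All 23 members were higher in IFE control E341 than in E360, all 21 higher in ORS knockout E358 than in E359, and 9 of 10 higher in ORS control E341 than in E344. Sprr1a was the exception, at a gap of −1.83. In IFE knockouts 4 members reached that level, with a median gap of 1.15, and in HFSC controls and knockouts 2 and 4 did, with 1.05 and 1.81. Some suprabasal markers differed between the same libraries. In IFE controls (E341 and E360) Krt1 was at 1697 and 698 CPM, Krt10 at 1404 and 649 CPM and Sbsn at 159 and 64.5 CPM, whereas Krtdap was at 5026 and 5065 CPM and Dsg1a at 448 and 424 CPM. Krt1 was also higher in ORS control E341 than in E344, at 38.02 and 4.69 CPM, and in ORS knockout E358 than in E359, at 4.24 and 1.74 CPM. The summed level of these 5 markers, most of it Krtdap in IFE, was 8735 and 6902 CPM in IFE controls and 7983 and 6356 CPM in IFE knockouts, 466 and 355 CPM (controls) against 283 and 196 CPM (knockouts) in ORS, and 2562 and 2393 CPM (controls) against 2202 and 2193 CPM (libraries labelled knockout) in HFSC. The part of these markers in the gaps was not tested. The 5 leukocyte markers summed to 18.65 to 45.06 CPM in HFSC and to at most 8.03 CPM in IFE and ORS libraries. Cd74, the only 1 of them tested, was called higher in HFSC than in IFE and than in ORS, by 3.86 and 4.68 (log2). Ptprc and Cd207 were at 0 in all 12 libraries. The part of such cells in the member levels was not tested.

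**Figure D3:**
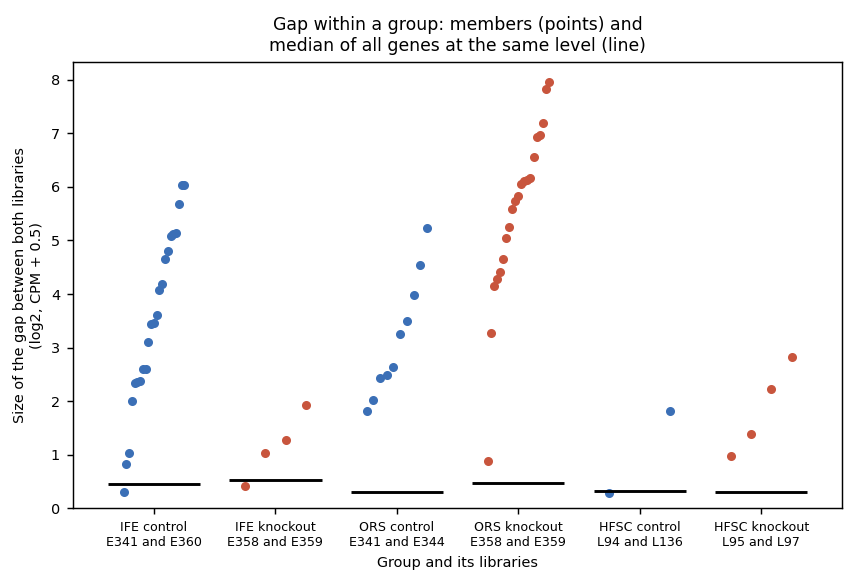
Size of the gap between both libraries of each group, as the difference of log2(CPM + 0.5), with 1 point per member at 10 CPM or more in either library and a line at the median over all genes at that level. Members other than Casp14 in IFE controls lie above the line in IFE controls, ORS controls and ORS knockouts, with gaps up to 7.95.

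The first comparison asked whether loss of Egfr changed the envelope genes in IFE. Of the 46 rows, 28 passed the filter on low reads, and 27 of these were fitted lower in knockouts, with a median log2 fold change of −2.63, against −0.03 over all 14449 genes tested, of which 54.8% were fitted lower. None of the 28 was called (limma with Benjamini-Hochberg adjustment over all genes), as was the case for all genes (0% called). At an unadjusted p under 0.05 there were 7 members and 1088 of all genes, and limma-voom called none. Both knockout libraries lay below both controls for 16 members, against 17.1% of all genes tested, and above both for none, against 13.6%. The 16 were Lor, Sprr2a3, Lce1a1, Lce1b, Lce1d, Lce1e, Lce1f, Lce1g, Lce1h, Lce1m, Flg2, both Flg rows, Hrnr, Casp14 and Tgm1. The 14 tested LCE genes were all fitted lower, with a median of −3.03. The median of all 28 was −1.18 without control E341 and −4.65 without control E360. The median gap between both controls, 3.46 over 23 members, was larger in size than the median of −2.63 over all 28. These are unlike measures, since the gap is taken without sign and only over members at 10 CPM or more in a control.

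For single genes the intervals were wide. The longer Flg row had a log2 fold change of −4.89 (SE 1.95, 95% interval −9.22 to −0.565, limma adjusted p = 0.597), and Sprr2a3 −3.02 (SE 0.964, −5.16 to −0.889, limma adjusted p = 0.51). Flg2 and Hrnr, with no read in either knockout, were at least 25.8-fold and 33.1-fold lower against the level that 3 reads in each knockout library allow. Without control E341 these limits were 8.98-fold and 1.87-fold, and without control E360 42.6-fold and 64.4-fold. Genotype and sex cannot be told apart in these 4 libraries.

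The ORS comparison gave the other direction. Of the 28 members tested, 22 were fitted higher in knockouts and 4 lower, with a median log2 fold change of 1.26, or 1.29 with each gene lacking reads on 1 side at its bound, against −0.03 over all 14449 genes. None was called by limma, and none of all genes was (0% called). At an unadjusted p under 0.05 there were 3 members and 491 of all genes, and limma-voom called none. Casp14 was the 1 member with both knockouts above both controls, against 14.6% of all genes, at 2.55 (SE 0.982, limma adjusted p = 1). Sprr1a and Sprr4 were the 2 members with both knockouts below both controls, against 16.8% of all genes. Sprr1a had a log2 fold change of −4.90 (SE 1.16, 95% interval −7.46 to −2.33, limma adjusted p = 1), and Sprr4 was at least 24.8-fold lower, with no read in either knockout (12-fold without control E344, 37.6-fold without control E341). Without knockout E358 the median of the 28 turned to −1.52, and without knockout E359 it was 3.75. It was −0.06 without control E344. Single genes turned as well: Lce1c (1.29) was at −1.63 without knockout E358 and −0.03 without control E344, and the longer Flg row (1.33) at −2.13 without knockout E358. Lor (−0.23) turned positive without control E341 (0.78), without knockout E359 (2.10) and at a pseudocount of 2 (0.07). By contrast, Sprr1a and Sprr4 kept a negative fold change under every alternative in which they were tested.

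Whether the knockout effect differed between ORS and IFE was tested by an interaction term, ORS minus IFE. Of the 28 members, 25 had a positive term, with a median of 3.83 against 0.01 over all genes. Of the 27 members at 10 CPM in any library, IFE control E341 was highest for 13 and ORS knockout E358 for 11. A high value in either library raises this term, so the members are not separate results. The term was not fitted without both libraries together. No member and no gene was called by limma (0%) or by limma-voom, and 10 members and 690 of all genes had an unadjusted p under 0.05. The term was 4.10 for Casp14 (SE 1.39, limma adjusted p = 0.999), 6.23 for the longer Flg row (SE 2.76, limma adjusted p = 0.999) and −5.83 for Sprr1a (SE 1.64, limma adjusted p = 0.999).

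In HFSC, 10 members passed the filter: Tgm3, Sprr2a3, Sprr2h, Sprr1a, Sprr4, Ivl, Crct1, Flg2, Casp14 and Tgm1. None was called by limma between the libraries labelled knockout and the controls, against 5 of 13778 genes (0.0363%; 80% of them higher, and 66.7% of 6 on the deposited scale). At an unadjusted p under 0.05 there were 2 members and 1052 of all genes, and limma-voom called none. Sprr1a, Sprr4 and Sprr2a3 were higher in both libraries labelled knockout than in both controls, against 19.7% of all genes, and Tgm3 was lower in both, against 18.3%. Sprr4 had a log2 fold change of 2.68 (SE 0.820, 95% interval 0.760 to 4.59, limma adjusted p = 0.508), and Sprr1a 1.82 (SE 0.618, 0.373 to 3.26, limma adjusted p = 0.554). The LCE, Lor and Flg rows were too low in HFSC to enter the test.

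Sprr1a and Sprr4 thus had ORS knockouts and HFSC libraries labelled knockout on opposite sides of their controls. The interaction term HFSC minus ORS, added after these values were seen, was 6.71 for Sprr1a (SE 1.46, limma adjusted p = 0.504) and 5.24 for Sprr4 (SE 1.21, limma adjusted p = 0.504), with no gene called (0%). At an unadjusted p under 0.05 there were 2 members and 682 of all genes, and limma-voom called 2 genes and no member. For Sprr2a3 the term HFSC minus IFE was 4.82 (SE 1.11, limma adjusted p = 0.276), again with no gene called (0%), 4 members and 1110 of all genes at an unadjusted p under 0.05, and none by limma-voom. Both terms share the HFSC libraries.

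Between compartments, the clearest member was Tgm3. In ORS against IFE its log2 fold change was −6.64 (SE 0.607, limma adjusted p = 6.45e-05). Sprr2a3, with no ORS read, had a fitted log2 fold change of −2.80 (SE 0.681, limma adjusted p = 0.0196). Its IFE mean was at least 50-fold above the level that 3 reads in each ORS library allow, or 25.6-fold without IFE control E341. IFE knockout E358, at 0.0793 CPM, lay below that level (0.112 CPM). Tgm3 and Sprr2a3 were the 2 of the 28 members tested that were called lower, against 7.25% of all 14449 genes. None was called higher, against 8.53%, so the share of members called was not above that of all genes. The median over members was −0.15, against 0.13 over all genes. On the deposited scale, which divides by all reads of a library, the median over all genes moved to 0.92 and 93.6% of 7445 called genes were higher, against 54% of 2280 here. The calls for Tgm3 and Sprr2a3 kept their direction there. Compartment and the title ending (FC7 in IFE, FC8 in ORS, none for ORS control E344) cannot be told apart. The Tgm3 call was kept under all 18 alternatives run, with an adjusted p of at most 0.0145. The call for Sprr2a3 was lost without IFE control E341, with any 1 ORS library left out, with a block for the title code, and without IFE control E341 and ORS knockout E358 together, with an adjusted p of up to 0.162.

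In HFSC against IFE 12 of the 28 members tested were called. The filter took reads over all 12 libraries, and only 10 members passed it in HFSC alone. Members with no read on 1 side, as Lce1d, Lce1e and Lce1g in HFSC or Sprr4 in IFE, could be fitted in 1 direction only. The counts called and the median over members thus rest in part on members that entered through the side where they were high. Tgm3, Lor, Sprr2a3, Lce1a1, Lce1c, Lce1d, Lce1e and Lce1g were called lower (8 members, against 16.1% of all 15251 genes). Sprr1a, Sprr4, Ivl and Tgm1 were called higher (4 members, against 19.9%). Compartment cannot be told apart here from the deletion label and the title series (E or L), which also differ. Sprr1a was higher by 6.13 (SE 0.729, 95% interval 4.54 to 7.72, limma adjusted p = 4.77e-05), Ivl by 3.44 (SE 0.751, limma adjusted p = 0.00366), and Sprr4 was at least 48.8-fold higher (limma adjusted p = 0.00044), or 16.1-fold without library L95. The log2 fold change was −5.88 for Tgm3 (SE 0.564, limma adjusted p = 1.02e-05) and −4.57 for Lce1c (SE 1.25, limma adjusted p = 0.0132), and Lce1d and Lce1e were at least 77.6-fold and 129-fold lower, with no HFSC read. Without IFE control E341 the limits for Lce1d and Lce1e were 18.7-fold and 42.6-fold. The median over members was −2.74, or −3.04 with such genes at their bound, against 0.18 over all genes. Calls for Tgm3, Sprr1a, Sprr4, Ivl and Lce1d were kept under all 17 alternatives run. Without IFE control E341 the number called fell to 5, and the calls for Lor, Lce1a1, Lce1c, Lce1e, Lce1g, Sprr2a3 and Tgm1 were lost. It was 6 without HFSC control L94 and 7 without HFSC control L136 or library L95.

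In HFSC against ORS 9 of the 28 members were called, a share near that of all genes in either direction. The same filter was used, so members without an HFSC read, as Lce1f and Lce1g, could be fitted lower only, and Tgm1, without an ORS read, higher only. Lor, Lce1a1, Lce1c, Lce1f and Lce1g were called lower (5 members, against 14.4% of all genes). The 4 members called higher, against 14.3% of all genes, were Sprr1a at 5.48 (SE 0.729, limma adjusted p = 0.000164), Ivl at 3.65 (SE 0.751, limma adjusted p = 0.00325), Sprr4 at 2.48 (SE 0.603, limma adjusted p = 0.00879) and Tgm1, at least 27.5-fold higher (limma adjusted p = 0.00681), or 15.2-fold without HFSC control L94. Lor had a log2 fold change of −3.52 (SE 0.959, limma adjusted p = 0.0163), and Lce1g, with no HFSC read, was at least 137-fold lower, or 24.8-fold without ORS knockout E358. The calls for these 4 higher genes and for Lce1g were kept under all alternatives run. The number called was 5 without ORS knockout E358, ORS control E341 or HFSC control L136, and 18 without ORS knockout E359. The median over members was −2.22, or −2.34 with such genes at their bound, against 0.03 over all genes. On the deposited scale the median over all genes moved to −0.74 and 14% of 7869 called genes were higher, against 49.9% of 4381 here, and no member's call changed direction. The plot of both contrasts shows the estimates for Sprr1a, Sprr4, Ivl and Tgm1 on 1 side of 0 and those of the LCE1 genes and Lor on the other. Both contrasts share the HFSC libraries. Of the 4 infundibulum and companion layer markers, Krt6a, Krt75 and Krt79 were called higher in HFSC than in IFE and than in ORS, and Krt17 was called lower than in ORS, with a median over the 4 of 5.75 and 3.65. Krt75 was at 66.1 to 121 CPM in HFSC and at most 3.38 CPM elsewhere, and Krt79 at 196 to 539.6 CPM in HFSC, 105 to 229 CPM in ORS and 5.27 to 49.9 CPM in IFE. The summed level of the 4, most of it Krt17, was 2053 and 3199.8 CPM (controls) against 3604 and 4909.8 CPM (knockouts) in IFE, 4405 and 4728 CPM (controls) against 3920.3 and 3902 CPM (knockouts) in ORS and 3501 and 4779 CPM (controls) against 5344 and 5692 CPM (libraries labelled knockout) in HFSC. The part of these markers in the higher SPRR and Ivl levels was not tested.

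**Figure D4:**
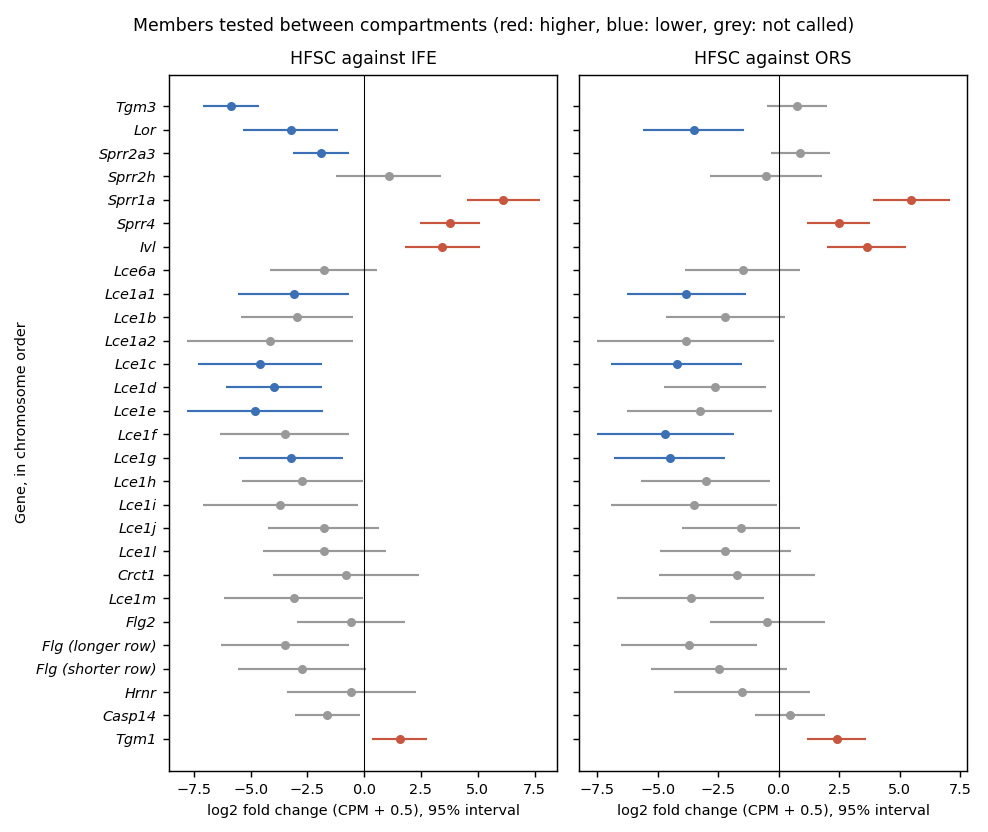
Log2 fold change with its 95% interval for the 28 tested members, HFSC against IFE (left) and HFSC against ORS (right), red where called higher, blue where called lower and grey where not called. Sprr1a, Sprr4, Ivl and Tgm1 lie to the right of 0 in both panels, and Lor and the LCE1 genes to the left.

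Other genes of the envelope pathway were counted from 4 lists. None of their tested genes was called in any knockout comparison. Of 15 tested partners of the envelope and desmosomes, 8 were called lower and 2 higher in ORS against IFE, 4 lower and 7 higher in HFSC against IFE, and 1 lower and 11 higher in HFSC against ORS. Of all genes, 7.25% were called lower and 8.53% higher in ORS against IFE, 16.1% and 19.9% in HFSC against IFE, and 14.4% and 14.3% in HFSC against ORS. Cst6, a cystatin that inhibits cysteine proteases of the epidermis, was at 36.0 and 3.39 CPM (controls) against 8.01 and 10.3 CPM (knockouts) in IFE, 76.6 and 109 CPM in ORS controls and 2.08 and 3.47 CPM in ORS knockouts, and 551 and 348 CPM (controls) against 1731 and 618 CPM (libraries labelled knockout) in HFSC. It was thus highest in HFSC library L95 and lower in both ORS knockouts than in ORS controls, as Sprr1a was. Both ORS knockouts lay below both controls in 16.8% of all genes. The median log2 fold change of the tested partners was −0.46 in ORS knockouts and 0.10 in HFSC libraries labelled knockout. Cst6 was singled out of this list with its values known, and the resemblance was not tested. Stfa1, another cystatin, was at 1087 to 1617 CPM in IFE and at most 8.18 CPM elsewhere. Of 9 tested genes of filaggrin processing and desquamation, 4 were called lower and 0 higher in ORS against IFE, 2 lower and 4 higher in HFSC against IFE, and 1 lower and 6 higher in HFSC against ORS, with the same shares over all genes. Asprv1, the protease that cuts profilaggrin, had a log2 fold change of −3.36 in HFSC against IFE (SE 0.408, limma adjusted p = 5.55e-05), and Spink5, an inhibitor of the kallikreins that shed the surface, was higher by 5.43 (SE 0.491, limma adjusted p = 6.67e-06).

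Of the 19 regulators of the complex, 18 were tested in ORS against IFE (8 lower, 5 higher) and 19 in HFSC against IFE (2 lower, 9 higher) and against ORS (3 lower, 11 higher). The shares of all genes lower and higher were 7.25% and 8.53%, 16.1% and 19.9%, and 14.4% and 14.3% in these 3 comparisons. Klf4, a transcription factor of the granular layer, was at 183 to 349.6 CPM in IFE, 82.3 to 126 CPM in ORS and 288 to 411 CPM in HFSC. Jun, an AP-1 subunit, was higher in HFSC than in IFE by 1.80 (SE 0.211, limma adjusted p = 4.23e-05) and than in ORS by 1.81 (SE 0.211, limma adjusted p = 6.03e-05). Fosl2, another AP-1 subunit, had one of −1.33 in HFSC against IFE (SE 0.174, limma adjusted p = 9.66e-05). Prdm1, a transcriptional repressor, had no read in IFE and was at 49.97 to 100.4 CPM in ORS. Of the 8 other genes of the complex, Pglyrp4, a peptidoglycan recognition protein, was called lower in both ORS and HFSC than in IFE, at 114 to 205 CPM in IFE and at most 3.95 CPM elsewhere, and Prr9 was called higher in HFSC than in either, with no read outside HFSC.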

How the data were processed

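Per the labels' protocols, the PicoPure and SMARTer Ultra kits were used for RNA and cDNA, and reads were 150 bp pairs per the series text. The values deposited by the authors are log2 reads per 1000000 of a library total of 39.94 to 60.88 M. Trim Galore, DESeq2 and mm10 appear, with no role, per the submitters' processing notes. Aligner, counter, annotation and use of strand were not given in the sources used here.

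At least 99.99% of values in each library were whole multiples of 1 read within 0.2 reads, so reads per gene were recovered. A gene without a read holds 0.9 read in the deposited scale and was set to 0. Reads per 1000000 reads in genes (CPM) were scaled by TMM (30% of ratios and 5% of levels trimmed) and fitted as log2(CPM + 0.5) with limma 3.58.1 (moderated test with trend and robust settings, R 4.3.3), two-sided, with Benjamini-Hochberg adjustment over all genes tested and a threshold of 0.05. Genes needed 10 reads at the median library size in 2 libraries and 15 in all. The 8 IFE and ORS libraries formed 1 fit, the 4 HFSC libraries another, and comparisons with HFSC used all 12. A fold change on this scale understates the change of low genes. Folds against a side with no read were set against 3 reads in each library of that side. Recovered reads were also tested by limma-voom. The fit was tested on simulated counts with 200 changed genes.

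Gene positions were checked against GENCODE vM21 (mm10). Members and lists were chosen with earlier results of these data known. Members at 10 CPM in any library, or called in any comparison, are described in full. Of other genes, Egfr, cell type markers, genes called in the comparison at hand and up to 3 per list of highest level are named. Alternatives were other pseudocounts (0.1 and 2), filters (none and 50 reads), scalings, limma-voom, other sets of libraries and each library left out. Protein sequences were not used here.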

Additional observations from a re-analysis of the deposited data

Results flagged for a closer look

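For Sprr1a, both ORS knockouts lay below both ORS controls and both HFSC libraries labelled knockout above both HFSC controls, at 8.25 and 30.6 against 0 and 0.113 CPM in ORS and 134 and 37.8 against 409 and 155 CPM in HFSC. The term HFSC minus ORS was 6.71 (limma adjusted p = 0.504, unadjusted p = 0.000623) and stayed between 4.94 and 10.02 over 16 alternatives (adjusted p from 0.208 to 1). Sprr4 was arranged in the same way, with a term of 5.24 (limma adjusted p = 0.504, unadjusted p = 0.000973), between 3.37 and 9.87 over 16 alternatives. Both genes are given here because their values moved in opposite ways in 2 compartments, without passing the test of that difference. Egfr was at 3.72 and 55.2 CPM in ORS knockouts and 335 and 330.1 CPM in HFSC libraries labelled knockout. Sex differed between both HFSC groups, whereas in ORS it set control E341 (male) apart from the other 3 libraries. Their part in the result was not tested.

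Casp14 lay below both controls in IFE knockouts and above both controls in ORS knockouts, and neither difference was called. The term ORS minus IFE was 4.10 (limma adjusted p = 0.999, unadjusted p = 0.0139), between 2.36 and 5.85 over 16 alternatives. Sprr2a3 was lower in both IFE knockouts than in both controls and present in HFSC only in the libraries labelled knockout, with a term HFSC minus IFE of 4.82 (limma adjusted p = 0.276, unadjusted p = 0.000994). That term passed the threshold under 1 of 16 alternatives, without IFE knockout E359 (adjusted p = 0.0391). Its HFSC level of 1.23 and 1.25 CPM came from 20 reads in each library, and some of its sequence occurs in other Sprr2 transcripts. The terms with HFSC were added after the values were seen. With 2 libraries a group no library could be tested as standing apart from its group.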

How the results depend on the processing

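Calls for Tgm3 (ORS and HFSC against IFE), Sprr1a, Sprr4 and Ivl (HFSC against both), Lce1d (HFSC against IFE), and Lce1g and Tgm1 (HFSC against ORS) were kept under every alternative in which they were tested. Other member calls were lost under at least 2 alternatives each, and the cause was not tested. Depth limits what can be said of members at 0: 3 reads are worth 0.107 to 0.268 CPM.

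No member was called in IFE, ORS or HFSC knockouts under any alternative. All genes called in IFE knockouts were 3 at a filter of 50 reads, 5 with IFE libraries alone and 24 with all 12 libraries, and 0 to 53 with a library left out, 53 of them without knockout E359. In ORS knockouts they were 0 to 2, in the term ORS minus IFE 0 to 2, and in HFSC against its controls 1 without a filter, 0 by limma-voom, 1 with all 12 libraries and 1 to 29 with a library left out. The term HFSC minus ORS called 2 genes by limma-voom, 4 with both compartments alone and 0 to 6 with a library left out. The term HFSC minus IFE called 1 gene at a pseudocount of 0.1, 7 with both compartments alone and 0 to 92 with a library left out, with 0 to 1 member.

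With a library left out, the median over members ranged from −4.65 to −1.18 in IFE knockouts, −1.52 to 3.75 in ORS knockouts, 1.68 to 6.10 in the term ORS minus IFE, −0.38 to 1.42 in HFSC (1.37 at a filter of 50 reads), −3.81 to 1.74 in HFSC minus ORS and 0.99 to 4.37 in HFSC minus IFE. In HFSC against IFE it ranged from −3.35 to −1.82, with −3.90 at a pseudocount of 0.1 and −4.49 by limma-voom, and in HFSC against ORS from −3.45 to −0.80, with −3.96 by limma-voom. In ORS against IFE it ranged from −1.40 to 1.28.

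In ORS knockouts the fold change of Lor (−0.23) turned to 0.07 at a pseudocount of 2, and ranged from −2.56 to 2.10 with a library left out (0.78 without control E341, 2.10 without knockout E359). That of Lce1c (1.29) ranged from −1.63 without knockout E358 to 4.20 (−0.03 without control E344), and that of the longer Flg row (1.33) from −2.13 without knockout E358 to 4.80. The cause of these reversals was not tested.

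The deposited scale, which divides by all reads, moved the median of all genes from 0.13 to 0.92 in ORS against IFE and from 0.03 to −0.74 in HFSC against ORS. It called 7445 and 7869 genes there, against 2280 and 4381, of which 93.6% and 14% were higher, against 54% and 49.9%. It called 7 members in HFSC against IFE. With both compartments alone 20 were called, and with a library left out 5 to 18, as in HFSC against ORS (5 to 18). In ORS against IFE all genes called were 1208 to 2682 and members 1 to 2 with a library left out, and 1038 and 1 without IFE control E341 and ORS knockout E358 together. HFSC against IFE called 4192 to 5732 genes and HFSC against ORS 3149 to 4114 with a library left out.

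With the title code as a replicate block, ORS against IFE called 1507 genes and 1 member (Tgm3). The call for Sprr2a3 was lost. Deviations of same-coded IFE and ORS libraries from their group means correlated at 0.049 to 0.056. With 2 libraries a group the deviations mirror each other, so the unlike codes E360 (IFE) and E344 (ORS) also correlated at 0.049. These values therefore cannot decide whether the code is a pairing. Summing all Sprr2 rows in place of Sprr2a3 moved the difference of knockouts and controls from 0 to 1.42 in ORS and from 1.80 to 0.79 in HFSC (log2, no test). The added reads were those of Sprr2h, which shares no sequence window with the other members, so this sum says nothing of reads shared between copies. Alternatives for the compartments alone, for both high libraries together and for the terms with HFSC were chosen after seeing the data.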

Other observations

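Some rows at positions of the complex carry names outside the rule. A row named AC127247.1 lies at the annotated Lce1k (chr3:92806291-92807891, minus strand) and followed the LCE1 genes, at 3.86 and 0 CPM in IFE controls, 1.03 and 0.423 CPM in ORS controls and 3.01 and 0 CPM in ORS knockouts, with no read in IFE knockouts or HFSC. Rows at the annotated Lce3d and Lce3e had no read in any library.

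Kprp, a keratinocyte proline-rich protein of the same complex, was at 38.1 and 8.21 CPM in IFE controls with no read in IFE knockouts, 4.23 and 0.346 CPM in ORS controls and 28.5 and 0.113 CPM in ORS knockouts, and at most 0.987 CPM in HFSC. Its highest libraries were those of the LCE1 genes, IFE control E341 and ORS knockout E358. The row 2310050C09Rik, from the same stretch, was at 36.4 and 0 CPM (controls) against 1.66 and 0 CPM (knockouts) in IFE, 2.45 and 0.346 CPM (controls) against 26.6 and 1.47 CPM (knockouts) in ORS, and at most 1.81 CPM in HFSC. Tchh (trichohyalin), which the inner root sheath and hair medulla use, was likewise highest within IFE in control E341 and within ORS in knockout E358, and reached similar levels in both IFE knockouts and in HFSC. It was at 16.1 and 1.34 CPM (controls) against 14.2 and 13.6 CPM (knockouts) in IFE, 0.889 and 5.07 CPM (controls) against 9.37 and 3.77 CPM (knockouts) in ORS, and 16.3 and 17.97 CPM (controls) against 12.2 and 14.8 CPM (libraries labelled knockout) in HFSC.

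Krt6a (a keratin of stressed and companion layer cells) was highest in HFSC, at 814 and 1043 CPM (controls) against 2059 and 1759 CPM (libraries labelled knockout) in HFSC, and was at 11.5 and 32.4 CPM in ORS controls and 0.929 and 0.792 CPM in ORS knockouts. As for Sprr1a, both ORS knockouts lay below both ORS controls and both HFSC libraries labelled knockout above both HFSC controls. Over all genes the ORS arrangement occurred in 16.8% and the HFSC arrangement in 19.7%. Krt6a was singled out after its values were seen, and the resemblance was not tested.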
